A study of Mus musculus with 24 samples.

Results

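The genes described here are 10 members of the NRF2 pathway and its antioxidant enzymes, taken by symbol from the 25229 genes of the count table: Nfe2l2, Keap1, Gclc, Gclm, Gsr, Txnrd1, Srxn1, Nqo1, Gsta4 and Hmox1. Their mRNA was measured by poly(A)-selected RNA sequencing of ID8 P53 KO cells, a mouse ovarian cancer line that lacks p53 (Trp53-/-). The cells were given DMSO (the vehicle), 750 nM cisplatin, 2.5 μM AU-15330 (AU15330 in the sample labels) or both drugs for 6 days, with 6 libraries for each of the 4 treatments. The cisplatin dose is that of the sample labels, and the methods of the study give a different concentration for these cells. Cisplatin is a platinum drug that crosslinks DNA and was chosen by the study as an inducer of senescence, a state not tested here. AU-15330 is a proteolysis-targeting chimera that degrades SMARCA4 and SMARCA2, the ATPases of the SWI/SNF chromatin remodelling complex. Every group shared the same P53 KO background, so nothing below bears on cells that keep p53. All libraries came from 1 line, and the labels do not say whether the replicates were separate cultures, so p-values measure only the spread between these libraries.

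NRF2, the product of Nfe2l2, is a transcription factor that is held in the cytoplasm and handed to degradation by KEAP1. Oxidants and electrophiles disable KEAP1, and NRF2 then pairs with small MAF proteins on antioxidant response elements (AREs) in front of genes for glutathione synthesis, thioredoxin recycling, quinone reduction, conjugation and haem breakdown. Because NRF2 is controlled mainly as a protein, the mRNA level of Nfe2l2 is not a measure of NRF2 activity. In tumour cells the pathway is known for its part in tolerance of platinum drugs.

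The libraries held 17592588 to 25260009 counts, and all 10 genes passed the low-count filter, which kept 12941 genes for testing. The lowest count of any of the 10 in a library was 332, for Nqo1 in cisplatin-treated cells, so counting error was small beside the spread between libraries. The chi-square per degree of freedom between replicates is near 1 when a pair of libraries differs by counting alone. It reached 116 in DMSO, 64.2 in cisplatin, 32.7 in AU-15330 and 31.8 in the combination, so the DMSO libraries stood furthest apart. In each treated group replicates 4 to 6 lay closer to each other than to replicates 1 to 3. Their pairs stood at 2.26 to 3.36 in AU-15330, 3.66 to 5.54 in the combination and 5.67 to 7.48 in cisplatin. Replicates 2 and 3 stood at 4.92 in AU-15330, 3.67 in the combination and 19.9 in cisplatin. In DMSO the closest pair was 4 and 6, at 8.64. The fits treated the 6 libraries of a group as independent, which was not tested, so adjusted p-values may be too small. Of 8 ovarian surface or mesothelial markers, 7 were detected and Epcam had at most 2 counts in a library. The summed level of these 8 markers was 3512 to 5308 CPM (read counts scaled to library size) in DMSO, 4174 to 4851 in cisplatin, 1018 to 1150 in AU-15330 and 1222 to 1403 in the combination. The 3 immune markers summed to at most 0.309 CPM. The endothelial pair summed to 2.87 to 4.23 CPM in DMSO, 8.24 to 12.5 in cisplatin and at most 1.05 with AU-15330, and nearly all of this was Pecam1, since Cdh5 had at most 3 counts in any library. The part of the change in surface markers in the results below was not tested. In bulk RNA, fewer cells that express a gene and less of its RNA per cell cannot be told apart.

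The stretches in front of the genes are shown because the ARE is the site through which NRF2 acts, and because these members were read out together. RefSeq sequence of build GRCm38.p6, from 250 bases before to 50 bases after each start, was at hand for 6 of the 10 genes (Nfe2l2, Keap1, Gclm, Txnrd1, Srxn1 and Nqo1, with 3 starts for Txnrd1). Gclc, Gsr, Gsta4 and Hmox1 were not searched. Both strands were searched for the ARE core TGACNNNGC and for the AP-1 motif TGACTCA, which overlap where TGACTCA is followed by GC. An ARE core was found for 4 of these 6 genes, Nfe2l2, Gclm, Txnrd1 and Srxn1, and neither motif was found for Keap1 or Nqo1. Of all 32851 windows of 300 bases, 12.4% held the ARE core and 5.20% the AP-1 motif. This is a share of windows, whereas the 6 genes had 8 windows and Txnrd1 held a core only at the second of its 3 starts. In the wider list described below, 14 of 55 genes with a window held the core. The 250 bases before the start of Nfe2l2 (chr2:75704664-75704913, minus strand), Gclm (chr3:122245307-122245556, plus strand), the second start of Txnrd1 (chr10:82858956-82859205, plus strand) and Srxn1 (chr2:152105274-152105523, plus strand) follow, 5′ to 3′ along the gene, with matches in capitals.
Nfe2l2: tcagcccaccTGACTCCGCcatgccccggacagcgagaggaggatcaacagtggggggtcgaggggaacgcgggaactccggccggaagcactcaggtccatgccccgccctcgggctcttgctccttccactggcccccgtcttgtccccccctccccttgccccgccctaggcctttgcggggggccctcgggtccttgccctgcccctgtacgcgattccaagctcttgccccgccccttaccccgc
Gclm: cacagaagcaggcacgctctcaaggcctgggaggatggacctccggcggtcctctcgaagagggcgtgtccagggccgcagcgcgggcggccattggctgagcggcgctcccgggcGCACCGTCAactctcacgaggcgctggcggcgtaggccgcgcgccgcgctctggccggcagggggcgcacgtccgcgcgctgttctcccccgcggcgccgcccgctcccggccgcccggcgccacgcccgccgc
Txnrd1, second start: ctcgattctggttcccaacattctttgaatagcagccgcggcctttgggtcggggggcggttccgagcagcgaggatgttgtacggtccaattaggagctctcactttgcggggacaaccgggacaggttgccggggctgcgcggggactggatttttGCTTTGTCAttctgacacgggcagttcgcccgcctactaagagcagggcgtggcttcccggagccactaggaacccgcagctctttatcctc
Srxn1: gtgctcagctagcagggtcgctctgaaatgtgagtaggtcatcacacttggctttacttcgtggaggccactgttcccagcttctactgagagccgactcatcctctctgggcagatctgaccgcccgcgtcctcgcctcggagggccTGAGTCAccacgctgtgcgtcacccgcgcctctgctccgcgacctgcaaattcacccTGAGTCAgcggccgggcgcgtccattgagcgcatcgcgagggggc
In Nfe2l2 the capitals mark an ARE core, TGACTCCGC, that begins 240 bases before the start. In Gclm they mark an ARE core on the other strand, printed as GCACCGTCA, 134 bases before the start. In Txnrd1 an ARE core on the other strand, printed as GCTTTGTCA, begins 92 bases before the second start. In Srxn1 the capitals mark AP-1 motifs on the other strand, at 102 and 45 bases before the start, and its ARE core lies outside the printed stretch, 29 bases after the start. A match in letters shows neither that a factor bound there nor that it did not bind elsewhere.

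The question put to these genes was how the NRF2 programme stood in cells treated with cisplatin, and how it changed when SWI/SNF was degraded with or without cisplatin. In cisplatin-treated cells most of the enzymes were lower than in DMSO. In AU-15330-treated cells Nfe2l2 and several enzymes were higher and Gsta4 was far lower, and in the combination the mean of each enzyme gene that fell with cisplatin, except Gsta4, was above its DMSO mean, though of these the test called Hmox1, Srxn1 and Txnrd1 and not Gclc, Gclm and Nqo1. Within replicates 1 to 3 the values of Nqo1 and Gclc lay the other way, at -0.24 (adjusted p = 0.213) and -0.16 (adjusted p = 0.585), and within replicates 4 to 6 both were called higher, at 0.97 (adjusted p = 3.40e-07) and 0.46 (adjusted p = 2.25e-05). Gclm was called higher with total-count scaling (0.30, adjusted p = 0.0194) and within replicates 4 to 6 (0.16, adjusted p = 0.0276). Nqo1 was called there with total-count scaling (0.46, adjusted p = 0.0413), without replicate 2 (0.51, adjusted p = 0.0378) and without replicate 3 (0.51, adjusted p = 0.0394) of every group, and with a block on the replicate numbers (0.41, adjusted p = 0.0416). Without DMSO replicates 2 and 3, a setting chosen after seeing the data, Gclc (0.60), Gclm (0.43) and Nqo1 (0.80) were all called higher. Hmox1, whose product breaks down haem, moved the most, from 192 ± 51.1 CPM (mean ± SD, n = 6) in cisplatin to 1956 ± 291 in the combination.

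Cisplatin against DMSO gave lower levels for 7 of the 10 genes and higher levels for 0 (edgeR's quasi-likelihood test, adjusted p of 0.05 or less), where 51.7% of all tested genes were called. The lower genes were Nqo1, Srxn1, Gclc, Gsta4, Hmox1, Gclm and Txnrd1, with log2 fold changes from -1.57 for Nqo1 to -0.58 for Txnrd1. Nfe2l2, Keap1 and Gsr were not called. Before adjustment 1 gene, Gsr, was higher at the same threshold (0.19, adjusted p = 0.0516 in the quasi-likelihood test), and 8 alternative settings called it, among them DESeq2 (0.20, adjusted p = 0.0377), replicates 4 to 6 (0.30, adjusted p = 0.000252) and leaving out DMSO replicates 2 and 3 (0.30, adjusted p = 0.00411), while replicates 1 to 3 gave 0.07 (adjusted p = 0.656). It was also called without replicate 2 (0.24) or replicate 3 (0.27) of every group. The median log2 fold change of the 10 was -0.70, against -0.00413 over all tested genes. AU-15330 against DMSO called 9 of the 10 genes, 6 higher and 3 lower, against 73.4% of all tested genes, so a share this high was close to the background. The combination against cisplatin called all 10, 8 higher and 2 lower, where 68.1% of all genes were called, and the median log2 fold change of the 10 was 1.03 against 0.0389 over all tested genes. The combination against AU-15330 called 4 of the 10, 3 higher and 1 lower, beside 41.7% of all genes. Within replicates 4 to 6 it called 6, 3 higher and 3 lower, beside 5454 of 12985 genes. A fit of these groups only also called 6, 3 higher and 3 lower, beside 54.5% of all genes. The combination against DMSO called 7, 5 higher and 2 lower, beside 73.3% of all genes. These comparisons share their control libraries and are not independent of each other.

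**Figure D1:**
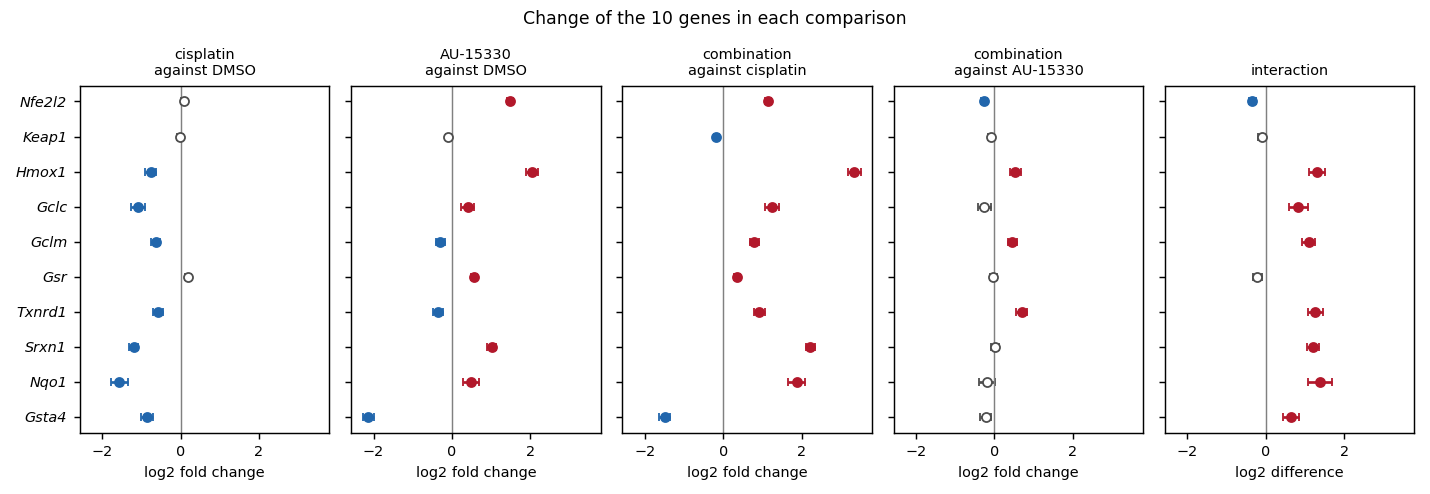
Log2 fold change of the 10 genes (rows) in 4 comparisons and in the interaction, which is the effect of AU-15330 in cisplatin-treated cells minus its effect in DMSO-treated cells. Points are edgeR estimates with bars of 1 standard error, red where higher and blue where lower at an adjusted p of 0.05 or less, and open where not called. In the comparison of the combination with cisplatin, 8 genes lie to the right of 0, Hmox1 farthest at 3.35, and Gsta4 lies at -1.50.

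Among the regulators, Nfe2l2 (chromosome 2, 75675513 to 75704641, build mm10) differed by the presence of AU-15330 far more than by cisplatin. Its lowest, median and highest levels were 213, 243 and 255 CPM in DMSO, 239, 254 and 262 in cisplatin, 584, 664 and 776 in AU-15330, and 505, 549 and 605 in the combination. Every library with AU-15330 lay above every library without it, and cisplatin and DMSO overlapped. The rise with AU-15330 was 1.48 ± 0.0716 on the log2 scale (SE), or 2.78-fold, with adjusted p = 6.20e-16. Cisplatin alone gave a log2 difference of 0.07 (adjusted p = 0.397), and on top of AU-15330 it lowered Nfe2l2 by a log2 fold change of -0.27 (adjusted p = 0.00345), although these groups overlapped and the call was lost within replicates 1 to 3 (-0.19, adjusted p = 0.186). Keap1, which encodes the adaptor that marks NRF2 for degradation, moved least of the 10, with mean levels from 88.7 CPM in the combination to 101 in DMSO. Its calls, -0.18 for the combination against cisplatin (adjusted p = 0.0352) and -0.19 against DMSO (adjusted p = 0.0213), were lost when replicate 2 of every group was left out (adjusted p = 0.168 and 0.140) and when replicate 3 was (adjusted p = 0.0718 and 0.0784), and the first also without replicate 4 (adjusted p = 0.0577). Both were also lost with total-count scaling (-0.11 and -0.05, adjusted p = 0.175 and 0.552) and within replicates 4 to 6 (-0.07 each, adjusted p = 0.45 and 0.39). Within replicates 1 to 3 they were -0.35 and -0.39 (adjusted p = 0.0063 and 0.0026). The call against DMSO was also lost without DMSO replicates 2 and 3 (adjusted p = 0.112) or DMSO replicate 1 (adjusted p = 0.0519). In AU-15330 against DMSO replicates 1 to 3 gave a lower call (-0.29, adjusted p = 0.0147). Exons of a gene on the opposite strand cover 10.9% of its exon bases.

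**Figure D2:**
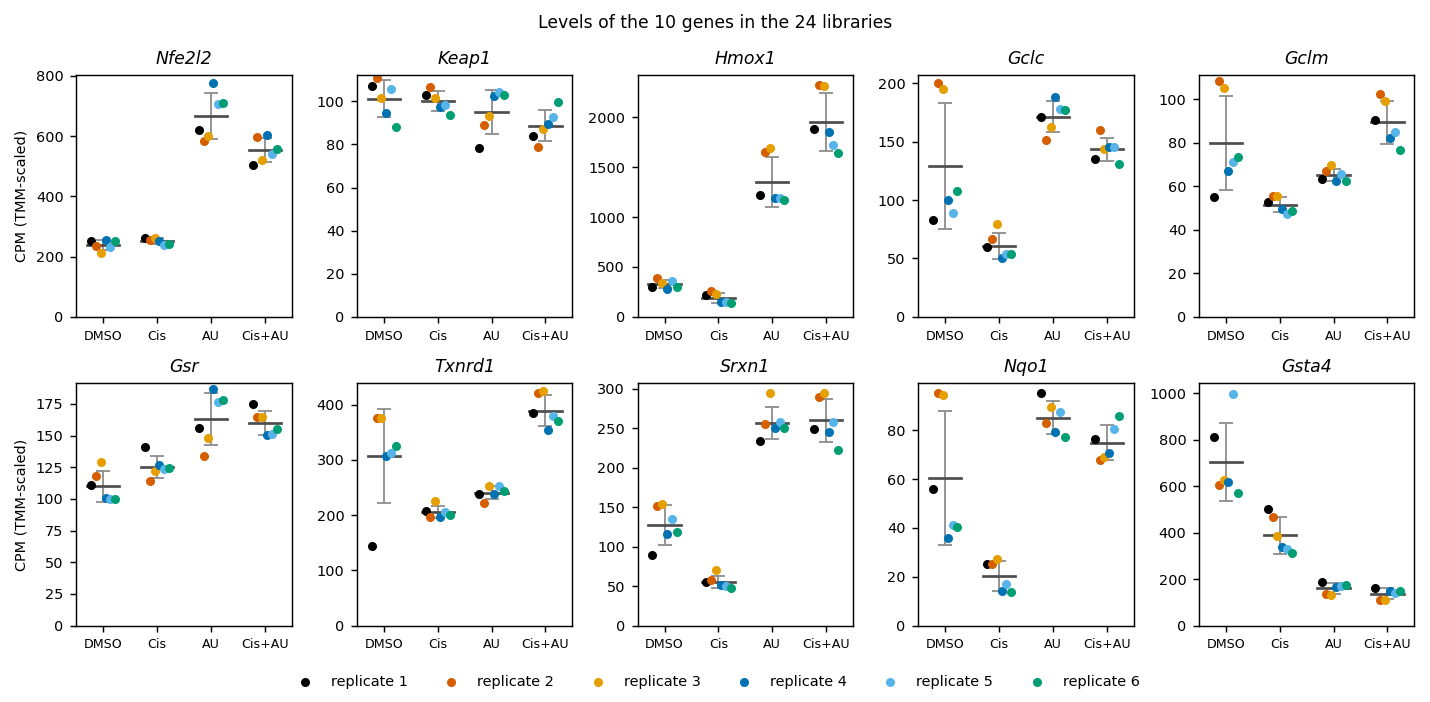
Level of each of the 10 genes in each of the 24 libraries, in CPM after TMM scaling, by treatment, each panel starting at 0. Points are libraries coloured by replicate number, and the horizontal line and bars are the group mean and SD. DMSO libraries of Gclc, Gclm, Txnrd1 and Nqo1 are spread widely, with replicates 2 and 3 highest, while Nfe2l2 separates the groups with and without AU-15330.

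Glutathione synthesis begins with glutamate-cysteine ligase, whose catalytic subunit is encoded by Gclc and whose modifier subunit is encoded by Gclm. Gclc ran from 83.1 through a median of 104 to 200 CPM in DMSO, from 50.4 through 56.8 to 79.4 in cisplatin, from 152 through 174 to 189 in AU-15330, and from 131 through 145 to 160 in the combination. Cisplatin libraries lay below all DMSO libraries (log2 fold change -1.09 ± 0.172, adjusted p = 8.27e-06), and the combination lay above all cisplatin libraries (1.24 ± 0.172, adjusted p = 5.15e-07). DMSO replicates 2 and 3, at 200 and 195 CPM, stood above every AU-15330 library, and the call of Gclc for AU-15330 against DMSO (0.41, adjusted p = 0.0332) was lost in 8 of the alternative settings, among them without DMSO replicate 1 (0.31, adjusted p = 0.0899) and on leaving out replicate 1, 4, 5 or 6 of every group (0.29 to 0.35). It was 0.02 (adjusted p = 0.960) within replicates 1 to 3, and 0.86 both within replicates 4 to 6 (adjusted p = 2.65e-08) and without DMSO replicates 2 and 3 (adjusted p = 1.17e-07). Gclm, for which genes with overlapping exons share at most 4.71% of its exon bases each, ran from 47.3 to 55.6 CPM in cisplatin and from 76.8 to 102 in the combination, which did not overlap (0.79 ± 0.118, adjusted p = 1.50e-06). Its fall with cisplatin was -0.64 (adjusted p = 6.81e-05). Without DMSO replicates 2 and 3 the falls with cisplatin were -0.35 for Gclm (adjusted p = 0.00173) and -0.63 for Gclc (adjusted p = 2.49e-05). In AU-15330 it ran from 62.5 to 69.9 CPM, inside the DMSO range of 55.3 to 108, and the lower call against DMSO (-0.30, adjusted p = 0.0247) became -0.03 (adjusted p = 0.801) without DMSO replicates 2 and 3, and was lost on leaving out replicate 2 (-0.20) or 3 (-0.22) of every group. Gsr, which encodes the glutathione reductase that returns oxidised glutathione to its reduced form, did not follow the ligase under cisplatin. It stood at 110 ± 12.1 CPM in DMSO and 125 ± 8.76 in cisplatin (0.19, adjusted p = 0.0516), and at 163 ± 20.6 in AU-15330 and 160 ± 9.51 in the combination. Its rise with AU-15330 was 0.57 (adjusted p = 5.54e-07), with 0.28 within replicates 1 to 3 and 0.84 within replicates 4 to 6, and every AU-15330 library lay above every DMSO library.

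In the thioredoxin system, Txnrd1 encodes the cytosolic thioredoxin reductase and Srxn1 encodes sulfiredoxin, which repairs over-oxidised peroxiredoxins. Srxn1 ran from 88.9 through a median of 126 to 155 CPM in DMSO, from 48.3 through 53.7 to 70.1 in cisplatin, from 234 through 253 to 294 in AU-15330, and from 223 through 253 to 295 in the combination. Cisplatin and DMSO did not overlap, nor did either overlap the groups with AU-15330, and those last groups covered the same range. The log2 fold changes were -1.20 ± 0.111 with cisplatin (adjusted p = 1.65e-09), 1.01 ± 0.110 with AU-15330 (adjusted p = 6.31e-09) and 2.22 ± 0.114 for the combination against cisplatin (adjusted p = 2.95e-15). Srxn1 kept all these calls in each alternative setting. Txnrd1 differed in that the combination, at 354 to 425 CPM, lay above AU-15330, at 222 to 252, with cisplatin at 196 to 226. The combination was 0.69 ± 0.133 above AU-15330 on the log2 scale (adjusted p = 0.000169) and 0.92 ± 0.134 above cisplatin (adjusted p = 1.05e-06), with no overlap in either case. The first of these calls was lost within replicates 1 to 3 (0.76, adjusted p = 0.0515). In DMSO 5 libraries ran from 307 to 375 CPM and replicate 1 was at 144. The lower call of Txnrd1 in AU-15330 against DMSO (-0.35, adjusted p = 0.0211) was lost without DMSO replicates 2 and 3 (-0.17, adjusted p = 0.271) and on leaving out any replicate number but 1 (-0.35 to -0.26). The higher call in the combination against DMSO (0.34, adjusted p = 0.0229) was lost without replicate 1 of every group (0.15, adjusted p = 0.0744) or replicate 5 (0.35, adjusted p = 0.0565), with no low-count filter (0.29, adjusted p = 0.0602), in a fit of these groups only (0.35, adjusted p = 0.0793) and within replicates 1 to 3 (0.42, adjusted p = 0.170). The fall of Txnrd1 with cisplatin was -0.58 (adjusted p = 0.000736), and -0.39 (adjusted p = 0.0205) without DMSO replicates 2 and 3. It was lost within replicates 1 to 3 (-0.51, adjusted p = 0.141), and DMSO replicate 1 lay below every cisplatin library.

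Nqo1 and Gsta4 encode detoxifying enzymes, a quinone reductase and a glutathione transferase that acts on the lipid aldehyde 4-hydroxynonenal. Nqo1, often used as the readout of NRF2, was lowest in cisplatin, where it ran from 13.7 to 27.4 CPM. In DMSO it ran from 35.8 through 48.5 to 95.1, in AU-15330 from 77.2 through 85.2 to 95.1, and in the combination from 67.7 through 73.4 to 85.7. The cisplatin libraries thus stood below every other library. The fall with cisplatin was -1.57 ± 0.214 (adjusted p = 1.02e-06) and the rise from cisplatin to the combination was 1.88 ± 0.215, or 3.68-fold (adjusted p = 2.01e-08). The fall without DMSO replicates 2 and 3 was -1.06 (adjusted p = 1.07e-05). The value for AU-15330 against DMSO, 0.49 (adjusted p = 0.0334), was 0.99 (adjusted p = 1.21e-05) without DMSO replicates 2 and 3 and 0.48 (adjusted p = 0.0568) without DMSO replicate 1. With both groups cut to replicates 1 to 3 it was 0.12 (adjusted p = 0.552), with both cut to replicates 4 to 6 it was 1.04 (adjusted p = 1.51e-07), and it was lost on leaving out replicate 1, 4, 5 or 6 of every group (0.40 to 0.43). Gsta4 fell furthest of the 10 under AU-15330. It ran from 573 through 623 to 999 CPM in DMSO, from 313 through 362 to 504 in cisplatin, from 132 through 168 to 190 in AU-15330, and from 109 through 147 to 163 in the combination. DMSO, cisplatin and the groups with AU-15330 did not overlap, whereas AU-15330 and the combination did (-0.22, adjusted p = 0.224). Its log2 fold change with AU-15330 was -2.13 ± 0.149 (adjusted p = 1.27e-12), a fall to 0.228 of the DMSO level. The surface marker sum was also lower in these libraries, mainly through Krt19, which ran from 1398 to 2518 CPM in DMSO and from 4.15 to 14.4 in AU-15330, with mean levels in DMSO and AU-15330 of 646 and 122 CPM for Krt18, 524 and 117 for Msln, 45.3 and 0.494 for Upk3b, 337 and 243 for Krt8 and 845 and 614 for Wt1.

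Hmox1 encodes haem oxygenase-1, which releases iron, carbon monoxide and biliverdin from haem. It ran from 281 through a median of 320 to 393 CPM in DMSO, from 144 through 187 to 260 in cisplatin, from 1173 through 1208 to 1693 in AU-15330, and from 1646 through 1868 to 2319 in the combination. Cisplatin, DMSO and the groups with AU-15330 formed 3 ranges that did not overlap. The fall with cisplatin was -0.77 ± 0.146 (adjusted p = 9.37e-05), the rise with AU-15330 was 2.05 ± 0.151, or 4.13-fold (adjusted p = 3.60e-12), and the rise from cisplatin to the combination was 3.35 ± 0.159, or 10.2-fold (adjusted p = 6.31e-16). The combination stood above AU-15330 alone by 0.53 (adjusted p = 0.00474), although replicates 2 and 3 of AU-15330, at 1651 and 1693 CPM, reached into the range of the combination. Replicates 2 and 3 were also the highest in DMSO for Gclc, Gclm, Gsr, Srxn1, Txnrd1 and Nqo1.

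Set per kilobase of exon, the 10 genes changed order with treatment. In DMSO Gsta4 was first, at 557 ± 132 CPM per kilobase, ahead of Hmox1 at 187 ± 24.6 and Nfe2l2 at 63.1. Srxn1, Txnrd1, Gsr, Nqo1 and Gclc followed between 45.1 and 34.3, and these neighbours differed by less than their SDs. In AU-15330 Hmox1 was first at 773 ± 142, followed by Nfe2l2 at 176 ± 19.9 and Gsta4 at 127 ± 18.1. In the combination Hmox1 reached 1117 ± 166. Gclm was last in every group, at 8.21 to 14.2 CPM per kilobase.

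**Figure D3:**
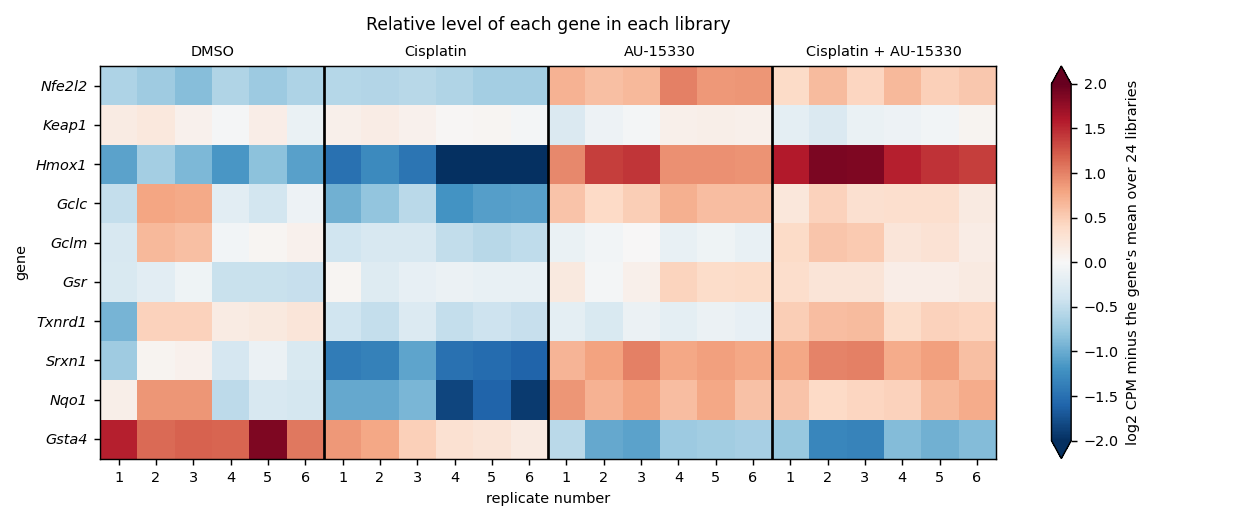
Level of each of the 10 genes (rows) in each library (columns, by treatment and replicate number), as log2 CPM minus the gene's mean over the 24 libraries. Colours run from blue (lower) to red (higher) and are capped at 2 in either direction. Hmox1, Srxn1 and Nqo1 are bluest in cisplatin, Gsta4 is red in DMSO and blue with AU-15330, and Keap1 stays near white.

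Whether a gene responded to AU-15330 to the same extent with and without cisplatin was asked with the interaction term. It was called for 8 of the 10 genes, 7 higher and 1 lower, beside 33.7% of all tested genes. The positive values were Nqo1 at 1.38 ± 0.294 (adjusted p = 0.000745), Hmox1 at 1.30 ± 0.206 (adjusted p = 2.80e-05), Txnrd1 at 1.27 ± 0.188 (adjusted p = 1.18e-05), Srxn1 at 1.21 ± 0.155 (adjusted p = 1.37e-06), Gclm at 1.09 ± 0.166 (adjusted p = 1.64e-05), Gclc at 0.83 ± 0.240 (adjusted p = 0.00892) and Gsta4 at 0.63 ± 0.203 (adjusted p = 0.0177). For these 7 the rise from cisplatin to the combination was larger, or for Gsta4 the fall smaller, than the change from DMSO to AU-15330. Nfe2l2 went the other way, at -0.34 ± 0.0992 (adjusted p = 0.00978). Keap1 (-0.09, adjusted p = 0.545) and Gsr (-0.22, adjusted p = 0.144) were not called. Gsr was called at -0.58 (adjusted p = 3.59e-05) within replicates 4 to 6, at -0.32 without replicate 2, at -0.34 without replicate 3, at -0.33 without DMSO replicates 2 and 3 and at -0.28 with total-count scaling, whereas within replicates 1 to 3 it was 0.10 (adjusted p = 0.725). Without DMSO replicates 2 and 3 the value of Gclc was 0.37 (adjusted p = 0.0462) and that of Nqo1 0.87 (adjusted p = 0.00380), and within replicates 1 to 3 the call of Gclc was lost (1.05, adjusted p = 0.0640). The Gsta4 value lost its call without replicate 5 (0.46, adjusted p = 0.108) and without replicate 4 (0.61, adjusted p = 0.0602), and it was 0.30 (adjusted p = 0.507) within replicates 1 to 3 and 0.95 within replicates 4 to 6. The Nfe2l2 call was lost within replicates 1 to 3 (-0.34, adjusted p = 0.122).

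A wider list of 59 genes for regulators, glutathione use, the thioredoxin system, quinone reduction and conjugation, haem and iron, NADPH supply and removal of superoxide and peroxide was taken to set the 10 in their pathway, and 55 of them passed the filter (not Gpx2, Gpx3, Gpx7 and Abcc2). Under cisplatin 31 of the 55 were lower and 1 was higher, so 58.2% were called against 51.7% of all tested genes. Under AU-15330 35 were lower and 5 higher, so 72.7% were called, close to the 73.4% of all tested genes (4816 lower, 4681 higher). Total-count scaling gave 29 lower and 10 higher in the list, beside 3973 lower and 5618 higher of all tested genes. The median log2 fold change of the 55 was -0.54, beside 0.45 for the 10 and -0.00301 over all tested genes. By role, AU-15330 gave lower levels for 13 and higher for 2 of 16 quinone reduction and conjugation genes, lower for 7 of 10 thioredoxin genes, 5 of 6 NADPH supply genes and 3 of 4 superoxide and peroxide genes with 0 higher in these, and 3 lower and 1 higher of 8 regulators, 3 and 1 of 6 glutathione genes, and 1 and 1 of 5 haem and iron genes. The combination against cisplatin gave 16 higher and 26 lower, or 76.4% called against 68.1% of all tested genes (4579 higher, 4234 lower). There 13 of the 16 conjugation genes were lower and 3 higher, while 4 of the 5 haem and iron genes were higher and 0 lower. The interaction was higher for 21 and lower for 1 of the 55, or 40.0% called against 33.7% of all tested genes (2313 higher, 2048 lower).

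**Figure D4:**
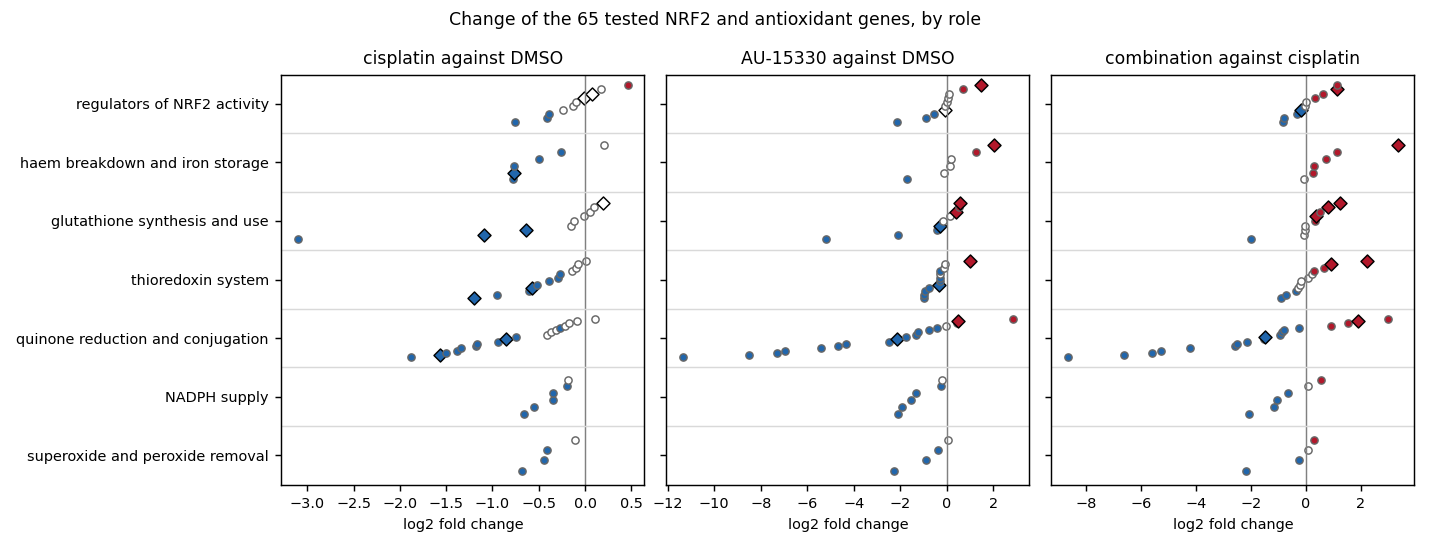
Log2 fold change of the 65 tested NRF2 and antioxidant genes by role, in 3 comparisons, with separate scales. Diamonds are the 10 genes and circles the wider list, filled red where higher, blue where lower and open where not called. The fitted values of Aldh3a1, Gstm2, Gsta1 and Gsta2, which had few or no counts with AU-15330, depend on the default prior count of the fit, which is not the one used for log2 CPM. Most circles for conjugation genes lie left of 0 with AU-15330.

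Among genes of the wider list with a mean log2 CPM of at least 3, the largest decreases under cisplatin were Slc7a11 (-3.10 ± 0.326, adjusted p = 1.47e-08), Abcc4 (-1.89 ± 0.171, adjusted p = 1.04e-09) and Gstm1 (-1.50 ± 0.173, adjusted p = 6.56e-08). Slc7a11 encodes the cystine importer that feeds glutathione synthesis, Abcc4 an efflux pump and Gstm1 a glutathione transferase. The single increase was Mafk, a small MAF partner of NRF2 (0.46 ± 0.0711, adjusted p = 5.72e-06). Under AU-15330 the largest decreases above the same level were Slc7a11 (-5.21 ± 0.373, adjusted p = 1.92e-12), Gstm1 (-4.66 ± 0.209, adjusted p = 1.26e-16) and Ephx1, an epoxide hydrolase (-4.32 ± 0.149, adjusted p = 7.05e-19). Slc7a11 fell from a range of 26.8 to 260 CPM in DMSO to 3.29 to 5.76. The largest increases were Gstp1 (2.85 ± 0.154, adjusted p = 5.87e-15), Blvra, the biliverdin reductase that acts after Hmox1 (1.28 ± 0.141, adjusted p = 9.30e-09), and Nfe2l1, an NRF2 relative (0.68 ± 0.115, adjusted p = 7.67e-06). Gstp1 rose from 124 ± 31.2 CPM in DMSO to 895 ± 152, opposite in direction to Gstm1 and Gsta4 of the same enzyme superfamily. Gstp1 and Gstm1 have near-identical relatives, and how reads shared by these were counted is not given in the sources used here.

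Against cisplatin, the combination raised Gstp1 (3.00 ± 0.156, adjusted p = 3.66e-15), Abcc4 (1.51 ± 0.169, adjusted p = 1.33e-08) and Blvra (1.15 ± 0.140, adjusted p = 6.11e-08) most among genes above that level. It lowered Gstm1 (-2.58 ± 0.194, adjusted p = 7.14e-12), Ephx1 (-2.49 ± 0.137, adjusted p = 1.14e-14) and Sod3, the extracellular superoxide dismutase (-2.16 ± 0.142, adjusted p = 4.41e-13), most. Abcc4 therefore fell with cisplatin and rose again in the combination, as Nqo1 and Gclc did, and Slc7a11 did not (-0.04, adjusted p = 0.922). Another 4 detoxifying genes, named after their values were seen, were close to the limit of detection with AU-15330. Aldh3a1, an aldehyde dehydrogenase, was at 276 ± 135 CPM in DMSO and had 0 to 5 counts a library in AU-15330 and 3 to 12 in the combination. Gstm2 had 0 to 5 counts in AU-15330, Gsta1 0 to 2 and Gsta2 0 to 5, and 3 counts corresponded to 0.120 to 0.186 CPM in these libraries.

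For the members whose groups spanned at least 1 on the log2 scale, the genes with the most similar pattern, among 9566 with a mean log2 CPM of at least 3, were found by the root mean square difference of centred log2 CPM over the 24 libraries, as a description. Nfe2l2 was closest to Zfp51 (0.112), Bmi1 (0.115) and Sdc2 (0.125). Gclc was closest to Fam114a1 (0.134), which was also first for Nqo1 (0.317), and Gclc itself was second for Nqo1 (0.349). Srxn1 was closest to Esyt1 (0.232), Gsta4 to Grhpr (0.236) and Hmox1 to Timp1 (0.354). All of these genes were read from the same libraries, so a departure of 1 library is shared among them.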

How the data were processed

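Poly(A)-selected RNA of ID8 P53 KO cells was sequenced in 24 libraries. The authors deposited raw read counts for 25229 gene symbols, in 2 lanes a library, and the lanes were summed here. The submitters' processing notes name STAR 2.7.1a, DESeq2 1.36.0 and build mm10. The counting tool, its use of strand and its annotation are not given in the sources used here. All 48 columns matched a label. Lanes of a library differed by a chi-square per degree of freedom of 1.36 to 1.46 and no pair of replicates by less than 2.26, so none was counted as a repeat.

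Testing used edgeR 4.0.16 (R 4.3.3). After filterByExpr (12941 genes kept) and TMM scaling, a model of group means over all 24 libraries, which left 20 residual degrees of freedom, was fitted and each contrast was given the quasi-likelihood F test. P-values were adjusted by Benjamini-Hochberg over all tested genes, with 0.05 as the threshold. Standard errors of fold changes were computed as the absolute log2 fold change divided by the square root of F. CPM values use TMM-scaled library sizes, and a prior count of 2 enters log2 CPM, while the fits kept edgeR's default prior count. The floor of 3 counts covers counting error only. Coordinates and exon lengths came from GENCODE M21, which holds 24366 of the 25229 symbols.

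The members, the wider list and the alternatives were chosen with earlier results of these data known. All 10 members are named. From the wider list, the 3 largest called increases and decreases with a mean log2 CPM of at least 3 are named in each of 3 comparisons. Alternatives were DESeq2 1.42.0, its size factors, total counts, no filter, a fold threshold of 1.5, a block on the replicate numbers, fits of the compared groups only, subsets of replicates and leaving out each replicate number. The targets of AU-15330 are degraded as proteins, so no targeted mRNA could serve to check the treatment labels.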

Additional observations from a re-analysis of the deposited data

Results flagged for a closer look

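Each gene named by rule was checked in each group of 6 for a library that stands apart, by the gap to its nearest neighbour divided by the range over the 6, and 3 of 76 groups passed Dixon's limit at 95%, against 3.8 that chance would give at about 1 in 20. Txnrd1 in DMSO replicate 1 had a share of 0.707, at 144 CPM with the next library at 307. Nfe2l1 in replicate 1 had a share of 0.776 in AU-15330 (700 CPM, next 933) and of 0.731 in the combination (610 CPM, next 740.0). All 3 libraries carry the number 1 and lie at the low end of their group.

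The response to AU-15330 was unequal with and without cisplatin, by the interaction term of the edgeR fit, for 8 of the 10 genes. The differences on the log2 scale were -0.34 for Nfe2l2, 0.83 for Gclc, 1.09 for Gclm, 1.27 for Txnrd1, 1.21 for Srxn1, 1.38 for Nqo1, 0.63 for Gsta4 and 1.30 for Hmox1. In the wider list the same term was called for 22 of 55 genes, or 40.0%, beside 33.7% of all tested genes.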

How the results depend on the processing

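Over the alternatives, 849 of the values for single members kept direction and side of the threshold, 75 lost a call, 29 gained one and 17 reversed, and each reversal was of a value not called in the reported fit; the causes were not tested. The reversed values were for Nfe2l2 in cisplatin against DMSO -0.020 (replicates 4 to 6 only); for Keap1 in that comparison 0.062 (total counts), 0.041 (without DMSO replicates 2 and 3), 0.021 (without DMSO replicate 1) and -0.036 to 0.0075 on leaving out each replicate number; for Keap1 in AU-15330 against DMSO 0.042 (total counts) and 0.094 (replicates 4 to 6 only); for Gsr in the combination against AU-15330 0.17 (replicates 1 to 3 only) and -0.10 to 0.024 on leaving out each number; for Srxn1 there -0.021 (no filter), -0.095 (replicates 4 to 6 only) and -0.035 to 0.041; and, within replicates 1 to 3, -0.16 for Gclc and -0.24 for Nqo1 in the combination against DMSO and 0.10 for Gsr in the interaction.

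A fold threshold of 1.5 left 3 members and 7 wider genes for cisplatin, 4 members for AU-15330, 24 wider genes for the combination against cisplatin, 0 members and 5 wider genes for the combination against AU-15330, 4 and 25 for the combination against DMSO, and 5 and 7 for the interaction. Of all 12941 tested genes it left 1789 for cisplatin, 4657 for AU-15330 and 3803 for the combination against cisplatin. It left 842 for the combination against AU-15330, 4683 for the combination against DMSO and 926 for the interaction. The reported fit called 4361 to 9497 per comparison. Fitting only the groups compared left 5 members for AU-15330 against DMSO, beside 70.5% of all genes. Replicates 1 to 3 alone gave 1 member and 11 wider genes for the combination against AU-15330 (2817 of all genes, against 5394) and 5 and 14 for the interaction (1701 of all genes, against 4361). For cisplatin they called 4361 of all genes, against 6689. Leaving out each replicate number gave 6 to 7 members for AU-15330 against DMSO, where 9 were reported, 7 to 8 for cisplatin, 9 to 10 for the combination against cisplatin and 7 to 9 for the interaction. Of all genes, 12940 to 12956 tested, the same fits called 8983 to 9685 for AU-15330 against DMSO and 5824 to 6826 for cisplatin. They called 8213 to 8958 for the combination against cisplatin and 3265 to 4627 for the interaction. In settings chosen after seeing the data, 7 members were called for AU-15330 against DMSO without DMSO replicates 2 and 3 (6 higher, 1 lower) and 7 without DMSO replicate 1 (4 higher, 3 lower). Of all genes these settings called 9323 of 13166 and 9566 of 13053. Without DMSO replicates 2 and 3 the combination against DMSO called 9 members, among them Gclc at 0.60, Gclm at 0.43 and Nqo1 at 0.80, beside 9300 of 13166 genes.

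Total-count scaling moved the median of all genes by 0.129 (AU-15330 against DMSO), 0.140 (combination against DMSO) and less than 0.1 in the other comparisons. It gave 3977 higher and 2529 lower genes for cisplatin, against 3360 and 3329, and 1791 and 2506 for the interaction, against 2313 and 2048. The replicate block called 7, 9, 10, 4, 8 and 8 members in the order cisplatin, AU-15330, combination against cisplatin, against AU-15330, against DMSO, and interaction. Of all 12941 tested genes it called 7354, 9966, 9286, 6185, 9889 and 5303 in the same order. Of same-numbered pairs, 23 of 36 had a correlation of deviations over 0.1 (mean 0.145, range -0.133 to 0.483, against a mean of -0.0269 for other pairs), and 10 of 24 libraries correlated best with their own number. Every pair was over 0.1 between AU-15330 and the combination alone (0.101 to 0.483), and there the block changed no member's call. The block called Nqo1 higher in the combination against DMSO (0.41, adjusted p = 0.0416 in edgeR's quasi-likelihood test). Depth was not limiting for the 10 genes.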

Other observations

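Genes of NADPH supply, chosen for description after their values were seen, were lower with AU-15330. Me1, the cytosolic malic enzyme, stood at 628 ± 102 CPM (SD, n = 6) in DMSO and 146 ± 7.42 in AU-15330, a log2 fold change of -2.10 ± 0.0849 (SE). Tkt, the transketolase, stood at 801 ± 249 and 212 ± 8.50 CPM (-1.92 ± 0.138). G6pdx, the first enzyme of the pentose phosphate pathway, stood at 289 ± 56.4 and 99.8 ± 3.43 CPM (-1.53 ± 0.0948). Each of these was also lower in the combination than in cisplatin, by -2.07, -1.17 and -1.07. Of all 6 NADPH supply genes, 4 were called lower and 1 higher in that comparison.

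Among the regulators, Bach1, which competes with NRF2 at AREs and represses Hmox1, was lower with AU-15330 (-0.54 ± 0.104) and lower in the combination than in cisplatin (-0.84 ± 0.104), while Hmox1 was higher in both. A link between these changes was not tested. Of the 8 regulators in the wider list, 3 were lower and 1 higher with AU-15330, and 3 were lower and 3 higher in the combination than in cisplatin. Bach1, Sqstm1 and Fth1 are named here outside the naming rule for the wider list. Sqstm1, an autophagy receptor that binds KEAP1, was lower with cisplatin (-0.76 ± 0.163), was higher in the combination than in cisplatin (1.15 ± 0.164) and was not called for AU-15330 against DMSO (0.03, adjusted p = 0.853 in edgeR's quasi-likelihood test). Its DMSO libraries ran from 922 to 2865 CPM. Fth1, the ferritin heavy chain, was lower with AU-15330 (-1.73 ± 0.128) and was at 2390 ± 427 CPM in cisplatin and 2273 ± 350 in the combination. Fth1 has many near-identical processed copies, so its counts are uncertain.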
